A study of Drosophila melanogaster with 54 samples.

Results

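The genes described here encode structural proteins of the Drosophila melanogaster cuticle. They were chosen by symbol: every gene whose FlyBase symbol begins with Cpr and a digit, or with Twdl, Ccp84A or Lcp. That gave 120 of the 17558 genes in each count table, with 70 Cpr, 26 Twdl, 17 Lcp and 7 Ccp84A genes, of which 3 are annotated as pseudogenes. Their RNA was followed through 3 embryonic stages and in S2 cells, and compared between mof RNAi samples and their controls, separately by sex. mof encodes an acetyltransferase of histone H4 that works in the male-specific lethal complex on the male X chromosome and in other complexes in both sexes. The series holds 54 libraries of polyA RNA in 14 groups.

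Control embryos were offspring of mothers with the maternal Gal4 driver mat-a-tubGal4 and controlRNAi, and mof embryos of mothers with the same driver and mofRNAi, each crossed to siblings. The driver acts in the mother's germ line, so the embryo receives the depleted RNA pool. The blastoderm stage, nuclear cycle 14 (St5), is represented by 4 male and 2 female control embryos and by 4 male and 2 female mof embryos. Gastrulation (St7) is represented by 7 male and 6 female controls and by 6 male and 4 female mof embryos. Each St5 or St7 library is 1 embryo. Embryos of 14 to 16 h (St15) carried Sxl-GFP in addition, were sorted as GFP negative (male) or GFP positive (female), and were sequenced in pools of 25. There are 3 male and 3 female control pools and 3 male and 4 female mof pools. S2 (Dmel-2) cells, a cell line of embryonic origin, received 10 ug of dsRNA against mof or GFP per 1000000 cells for 3 days, with 3 libraries each. Groups were taken from the titles, since the genotype field goes against them in places: for the St5 control females it names the mofRNAi cross, and for the St15 mof pools it gives controlRNAi with the stock number of the mofRNAi line. The mof and control embryos come from different RNAi stocks, so a difference in stock background cannot be told apart from mof depletion. Stage cannot be told apart from table, and the exact age of a pool within the St15 window is not recorded. Whether separate S2 cultures were used is not stated.

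The insect cuticle is an extracellular layer of chitin and protein that the epidermis and the tracheal cells secrete at their apical surface. Most of its structural proteins belong to the CPR family, which binds chitin through the Rebers-Riddiford domain; in Drosophila the Cpr genes, the Lcp genes, first described as larval cuticle proteins, and the Ccp84A genes are of this family. The Tweedle proteins are a separate family of cuticle proteins, named after a TwdlD allele that gives a short and stout larva. Many of these genes lie side by side in tandem groups. Late embryos build the cuticle of the first larval stage, and earlier stages have none.

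Counts per library ran from 28278799 to 41513416 at St5, 5504650 to 10024836 at St7, 19018190 to 38076982 at St15 and 20487339 to 38772186 in S2 cells. Levels are given in CPM, a count per 1000000 counts of the library. The mof log2 fold change was -6.68 in males and -9.07 in females at St5, and -3.86 and -1.65 at St7 (edgeR adjusted p under 0.05 in each). mof RNA at St15 was 25.4 ± 11.5 CPM in control males and 2.55 ± 0.417 in mof males (SD, n = 3 each), and 11.1 ± 0.124 in control females (n = 3) and 2.82 ± 0.304 in mof females (n = 4). In S2 cells it was 69.4 ± 3.10 CPM in the libraries labelled GFP dsRNA and 61.2 ± 11.3 in those labelled mof dsRNA (n = 3 each), which did not pass the test (edgeR adjusted p = 0.491). In the same libraries the X complex RNA roX2 was at 3986 ± 256 CPM with GFP dsRNA and 1951 ± 123 with mof dsRNA (n = 3 each; log2 fold change -1.03 ± 0.06, edgeR adjusted p = 5.0e-06), and 37.0% of the 1593 tested X-linked genes were lower. roX1, an RNA of the male X complex, was at 847 to 893 CPM in St15 control males and at 38.6 to 52.8 in control females. A pair of St15 control libraries, control female 4 and control male 2, stood apart from the other 4 controls for a subset of the cuticle genes. The St15 counts of members called in mof against control are given with and without them, and so are those of some tandem groups.

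The cuticle protein genes were nearly silent in early embryos and strongly present at St15. The summed level of all 120 was 1.58 to 39.9 CPM over the 12 St5 libraries and 32.4 to 48.5 CPM over the 23 St7 libraries. At St15 it was 4794 to 15112 CPM over 13 libraries, and in S2 cells 23.8 to 29.5 CPM over 6. The St15 libraries thus lie far above every other library. In control libraries 1 of the 120 genes (0.833%) had a mean of at least 1 CPM at St5, where 41.3% of all genes did. At St7 this held for 6 (5%), beside 48.2% of all genes, and in S2 cells for 5 (4.17%), beside 48.9%. At St15 it held for 71 (59.2%), beside 55.3% of all genes, so that at this stage the cuticle genes were about as often present as an average gene. Of these 71, 67 were under 1 CPM at both earlier stages, and 6 of them had not a single count in any St5 or St7 library. At St15, 45 genes were at 10 CPM or more and 17 at 100 CPM or more.

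**Figure D1:**
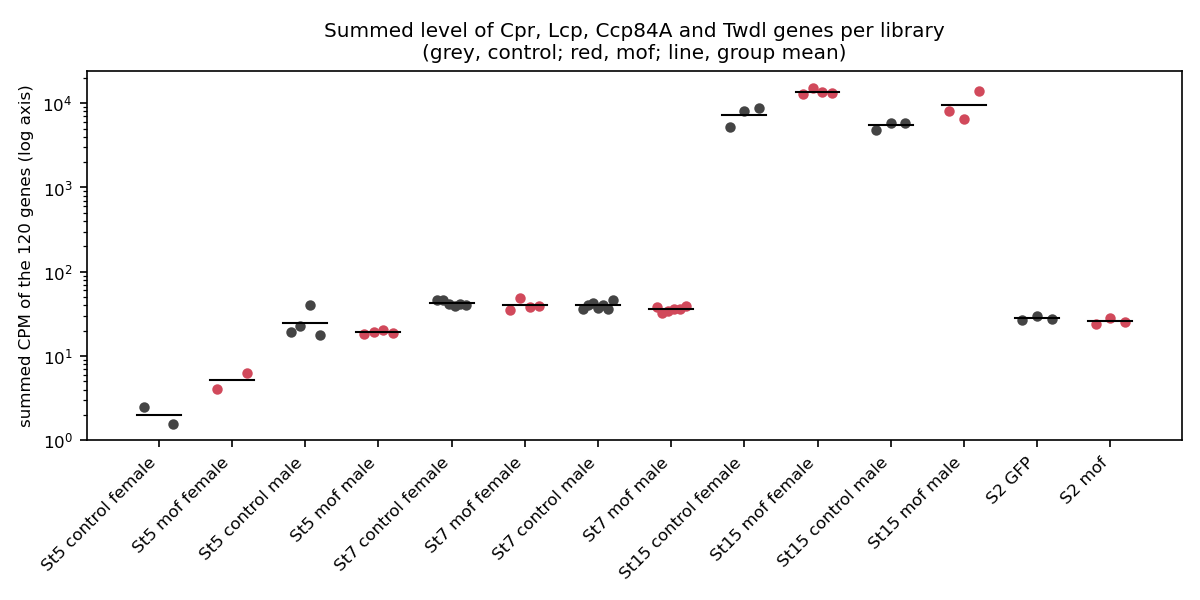
Summed CPM of the 120 cuticle protein genes in every library (points; log axis), by stage, sex and treatment, with the group mean as a line. The St5, St7 and S2 libraries stay under 50 CPM, and the St15 libraries lie between 4794 and 15112 CPM.

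A small set preceded the rest. Cpr73D was the most abundant at St7, with 9.93 to 17.1 CPM over the 13 control libraries of both sexes, and stood at 1.31 to 2.65 CPM in the 6 St15 controls. It overlaps Obp73a and Ogdh, and whether reads were counted by strand is not given, so its reads could belong to those genes. Twdlalpha, the X-linked Tweedle gene at the end of its tandem group, was at 3.88 to 15.3 CPM in the St7 controls and at 0.0407 to 1.29 CPM in the St15 controls. It overlaps goe and CG32568, with the same limit. Cpr60D had a control mean over both sexes of 10.1 CPM at St5, 4.45 at St7 and 0.129 at St15. The St5 males carried most of it, at 7.32, 9.48, 33.3 and 8.70 CPM, beside 1.45 and 0.498 CPM in the control females. At St7 the control males were at 2.19 to 7.40 CPM and the control females at 2.96 to 6.10. The control females were thus higher at St7 than at St5. Cpr60D and Twdlalpha were the only members at 1 CPM or more in an early stage and under 1 CPM at St15. The other St7 genes were low then and high later: the control mean of Cpr66D was 1.91 CPM at St7 and 151 at St15, that of TwdlE 1.54 and 149, and that of Cpr78Cb 1.83 and 10.3.

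**Figure D2:**
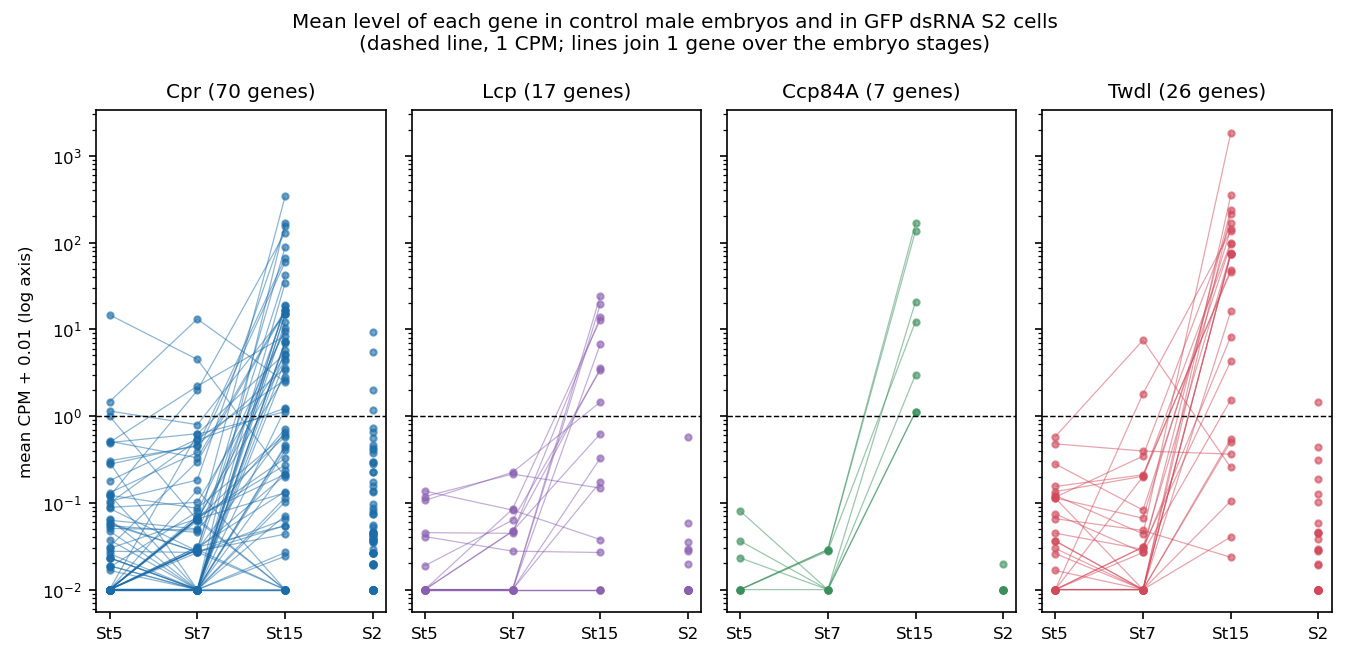
Mean CPM of each gene plus 0.01 (log axis) in control male embryos at St5, St7 and St15 and in GFP dsRNA S2 cells, in 1 panel per gene group. The dashed line is at 1 CPM; most genes lie under it until St15, where 71 of the 120 are at or above it as a mean of both sexes.

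At St15 the Tweedle genes held most of the RNA. In the 6 controls they made up 65.8% of the summed level, the Cpr genes 26.6%, the Ccp84A genes 6.18% and the Lcp genes 1.42%. A single gene, TwdlF, made up 28.2%. Its level was 1266, 2339 and 1728 CPM in the control females and 1742, 1594 and 2147 in the control males, with no separation of the sexes. The next by mean control level were TwdlD at 533 CPM, Cpr64Ad at 390, TwdlM at 311 and Cpr65Ea at 283, and with these 5 the share reached 52.0%. Per kilobase of exon, which allows genes to be set against each other, TwdlF had 1460 CPM per kb, TwdlD 553, Cpr65Ea 523, Cpr64Ad 406, Cpr51A 352 and TwdlM 302. Cpr64Ad lies within CG43367 and Cpr51A overlaps CG30197, which makes their counts uncertain.

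Presence at St15 differed between tandem groups. Groups were defined as 3 or more members whose starts lie within 20000 bases of the next, which placed 88 of the 120 genes in 15 groups. All 7 Ccp84A genes (3R, 6686728 to 6704903 in dm6) were at 1 CPM or more in controls, as were all 4 genes from TwdlU to TwdlV (3R, 4243606 to 4255833) and all 3 from Cpr65Ea to Cpr65Ec (3L, 7086003 to 7093841). Of the 12 genes from TwdlM to TwdlD (3R, 26619118 to 26641054) 7 were present. In the largest group, the 18 genes from Lcp65Ag3 to Cpr65Az (3L, 6130386 to 6161589), 6 were present. The Cpr47E group had 2 of 7, the Cpr72E group 1 of 3 and the Cpr76B group 1 of 4. Of the 32 genes outside any group 22 were present. Lcp65Ag1, Lcp65Ag2 and Lcp65Ag3, Lcp65Ab1 and Lcp65Ab2, Cpr65Ax1 and Cpr65Ax2, and Cpr67Fa1 and Cpr67Fa2 are near-identical copies, and how reads were divided between them is not given in the sources used here.

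The St15 controls did not form a single pattern. In 23 of the 85 members that passed the low count filter (27.1%), control female 4 and control male 2 were each at least 2-fold above all 4 other controls, which held for 1.37% of the 10684 genes tested. The pair was noticed in these data, so this is a description. Cpr47Eg was at 29.8 and 47.7 CPM in the pair and at 1.05, 1.68, 1.22 and 1.27 in the other controls. TwdlN was at 191 and 205 CPM in the pair and at 7.39 to 19.8 elsewhere. Lcp65Ag1 was at 56.6 and 54.2 CPM in the pair and at 1.06 to 6.73 elsewhere. The lower of the pair was 17.7-fold above the highest other control for Cpr47Eg, 9.65-fold for TwdlN and 8.06-fold for Lcp65Ag1. These are differences between pools that share a genotype. Of the 23, 6 lie in the Lcp65A group, 4 in the Ccp84A group, 4 between TwdlM and TwdlD and 2 each in the Cpr47E and Cpr78C groups. Among the genes of other lists, the pair was set apart in the same way for Edg78E, Edg91, Muc11A and Mur18B of 16 other structural cuticle genes, for Ddc of 15 tanning genes and for Jon65Aiv of 9 midgut genes. No such gene was found among the tested genes of the other 11 lists, which cover chitin, apical matrix, ecdysone, epidermis, septate junctions, muscle, neurons, glia, fat body, salivary gland and germ line. In 21 of the 23 members all 7 mof libraries of both sexes also lay above the 4 other controls, which was the case for 94 of the 146 genes found in this way over the whole table. For Lcp65Ag1 the mof females stood at 92.9, 58.9, 71.4 and 74.2 CPM and the mof males at 23.3, 38.2 and 46.0.

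**Figure D3:**
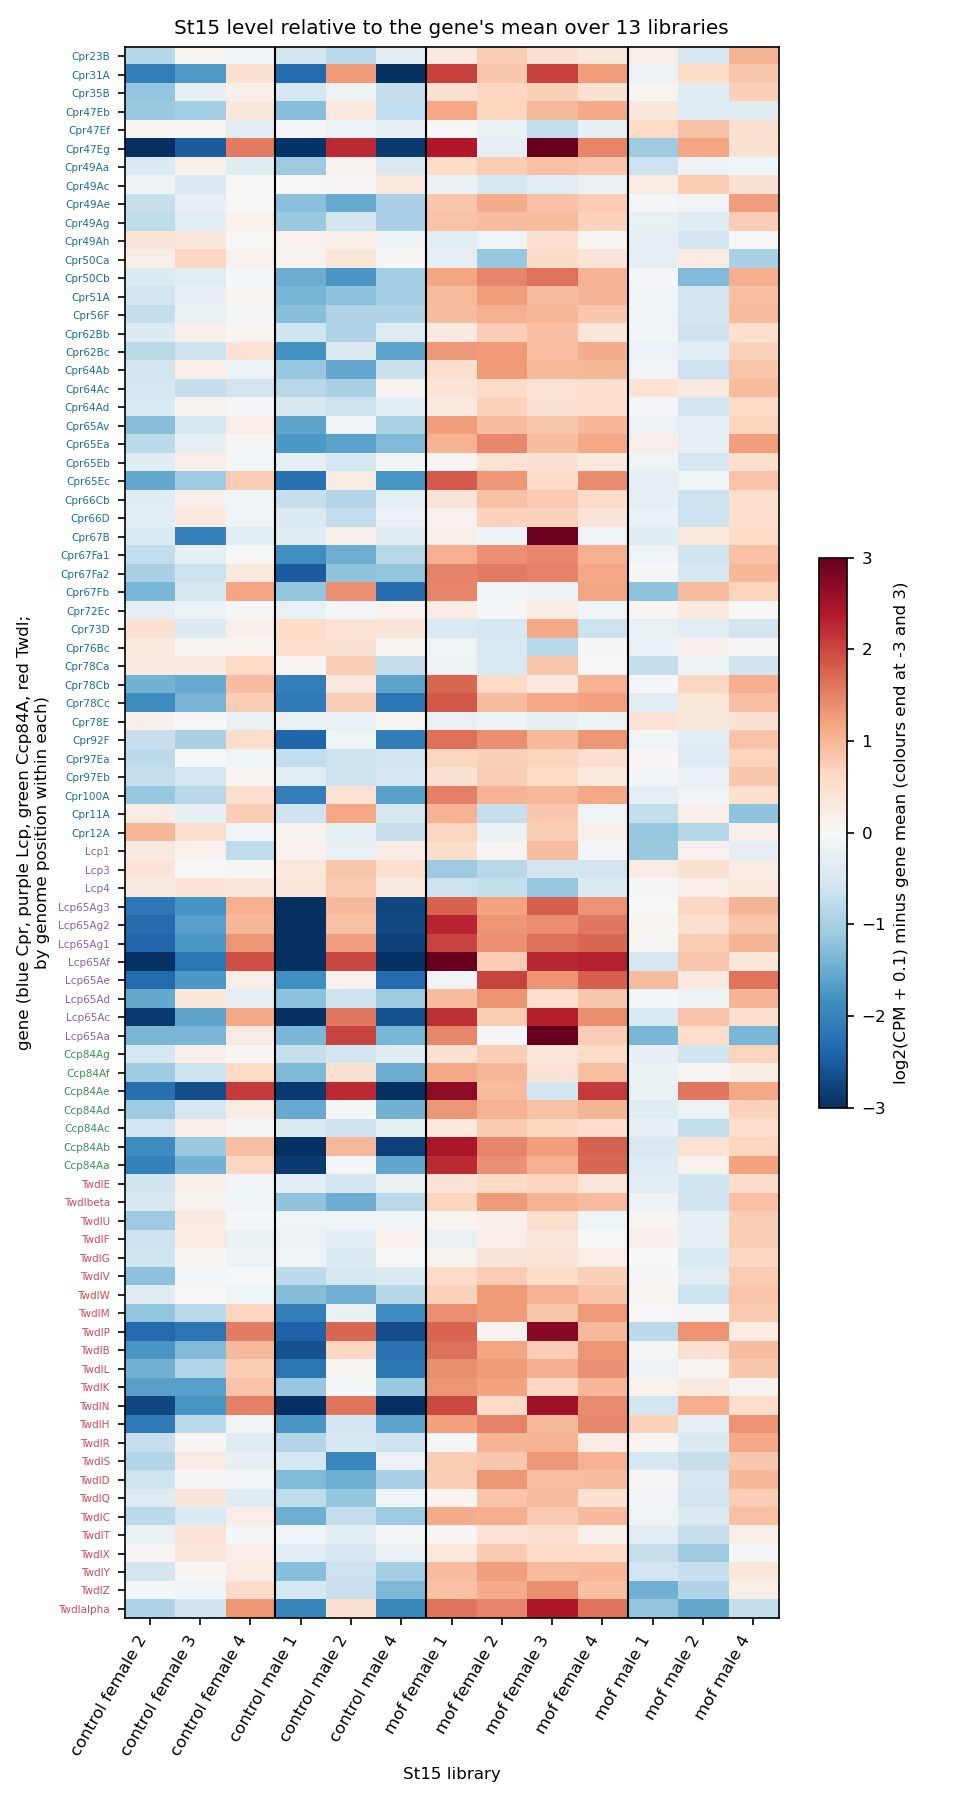
St15 level of the 85 tested genes in each of the 13 libraries, as log2(CPM + 0.1) minus the gene's mean over the libraries (red above, blue below). Control female 4 and control male 2 carry red cells in rows such as Cpr47Eg, Lcp65Ag1 and TwdlN where the other 4 controls are dark blue, and the mof female columns are red in most rows.

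In St15 females many cuticle protein genes were higher in mof than in control embryos. Of the 85 members tested, 28 were higher and 2 lower, beside 12.7% of all tested genes higher and 13.3% lower (edgeR's quasi-likelihood test, Benjamini-Hochberg adjusted p under 0.05). That is 32.9% of the tested members higher and 2.35% lower. Their median log2 fold change was 1.21, where that of all tested genes was 0.02, and 75 of 85 were above 0. At an unadjusted p under 0.05 there were 51, beside 40.0% of all genes. The libraries of the groups did not overlap in 49 members on the higher side and 3 on the lower, beside 15.1% and 25.8% of all genes. The summed level was 12860, 15112, 13690 and 13239 CPM in the mof females and 5186, 8024 and 8725 in the control females, and these values do not overlap. In pools of whole embryos, more cells of a type, more RNA per cell and an older age within the St15 window cannot be told apart. The count depended on single libraries: without control female 2, which had the lowest sum, it was 2 higher and 2 lower, beside 3.19% and 9.56% of all genes in that fit, and without control female 3 it was 11 and 2, beside 5.57% and 11.0%. The female calls over all genes thus also became fewer in these fits. Without both control female 4 and control male 2, 47 members were higher and 2 lower of 86, beside 11.7% and 12.8% of all genes. These controls were singled out for being high in 23 of the members, so this count is a description. Among those 23 the calls higher went from 1 to 22, and among the other 62 from 27 to 25.

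TwdlH, a Tweedle gene of the tandem group from TwdlM to TwdlD, had the largest called change. It was at 8.75, 10.5, 7.26 and 10.03 CPM in the mof females and at 0.763, 2.05 and 3.46 CPM in the control females. No mof value reached down to the controls, and the log2 fold change was 2.19 ± 0.50 (standard error; edgeR adjusted p = 0.00987). Cpr65Ea, among the most abundant Cpr genes, was at 1015, 1323, 936 and 1090 CPM in the mof females and at 282, 403 and 506 in the controls. Here too the groups were separate, with a log2 fold change of 1.52 ± 0.35 (edgeR adjusted p = 0.0122). Cpr67Fa2 (1.84 ± 0.43) and its near-identical neighbour Cpr67Fa1 (1.62 ± 0.36), Cpr50Cb (1.66 ± 0.45), Ccp84Ad (1.51 ± 0.43), Cpr65Av (1.49 ± 0.41) and Cpr62Bc (1.46 ± 0.41) also rose, with edgeR adjusted p of 0.00913 to 0.0286. Ccp84Ad, at 68.2 to 93.3 CPM in mof females and 17.5 to 43.2 in controls, was the only one of the 7 Ccp84A genes called. Without control female 2 only TwdlH and Cpr67Fa1 of these 8 stayed called, and the edgeR adjusted p of the other 6 was 0.0547 (Cpr65Ea) to 0.122 (Cpr62Bc). Without control female 3 it was 0.0545 to 0.102 for Cpr67Fa2, Cpr50Cb, Ccp84Ad, Cpr65Av and Cpr62Bc. Ccp84Ad and Cpr62Bc were also not called with the replicate block (edgeR adjusted p = 0.0620 and 0.0506) or without mof female 1 or 2, Cpr65Av not without mof female 1, and Cpr50Cb not without mof female 3. TwdlF did not pass: its mof females were at 1688, 2278, 2521 and 1956 CPM and overlapped the controls (0.31 ± 0.27, edgeR adjusted p = 0.413).

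Lcp3 and Lcp4, neighbours in the group of larval cuticle genes first described in the third larval stage, went the other way. Lcp4 was at 5.78, 5.57, 4.13 and 6.81 CPM in the mof females and at 11.1, 12.3 and 11.5 in the control females. Lcp3 was at 0.998, 1.23, 1.52 and 1.51 CPM in the mof females and at 2.96, 2.26 and 2.33 in the controls. Both sets were separate, with log2 fold changes of -0.999 ± 0.15 for Lcp4 (edgeR adjusted p = 0.000603) and -0.89 ± 0.20 for Lcp3 (edgeR adjusted p = 0.00675). The third tested gene of that group, Lcp1, did not pass in females (0.56 ± 0.35). The 2 lower calls were made in every fit that left out a St15 library.

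In St15 males 20 of the 85 members were higher and none lower, beside 16.0% of all tested genes higher and 18.2% lower (edgeR's quasi-likelihood test). That is 23.5% of the tested members higher. At an unadjusted p under 0.05 there were 29 members in either direction (34.1%), which is a smaller share than the 43.4% of all genes. DESeq2 called 27 higher and none lower, beside 16.6% and 18.6% of all genes. The median log2 fold change was 0.74, beside 0.02 over all genes. Libraries did not overlap in 25 members on the higher side and 1 on the lower, beside 21.8% and 23.0% of all genes. The summed level was 7975, 6422 and 13786 CPM in the mof males and 4794, 5809 and 5757 in the control males, so that mof male 4 alone was more than 2-fold above every control. Without mof male 4, 12 members were higher and 1 lower, beside 17.0% and 17.8% of all genes. Without control male 1 there were 11 and 0, beside 12.4% and 15.1%, and with the male libraries fitted alone 8 and 1, beside 11.4% and 15.7%. In these 3 fits the share of members called higher was near that of all genes. Without control male 2 there were 30 and 0, beside 14.9% and 15.6%, and without both control female 4 and control male 2 there were 37 higher and none lower of 86, beside 13.1% and 15.9% of all genes. These controls were left out because they were high in 23 of the members, so these counts are descriptions. Without both, the calls higher among the 23 went from 0 to 19, and among the other 62 from 20 to 18.

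Cpr65Ea led the male list. It was at 552, 398 and 1162 CPM in the mof males and at 149, 160 and 196 in the control males, with no overlap and a log2 fold change of 2.07 ± 0.37 (edgeR adjusted p = 0.00187). TwdlH was at 5.99, 3.04 and 9.49 CPM in the mof males and at 1.02, 2.41 and 1.15 in the controls (2.04 ± 0.53, edgeR adjusted p = 0.0118). Cpr49Ae was at 11.7, 11.1 and 29.0 CPM in the mof males and at 4.97, 4.17 and 6.03 in the controls (1.77 ± 0.36, edgeR adjusted p = 0.00293). In each of these genes mof male 4 was the highest, and the other 2 mof males also lay above every control male. TwdlD, the gene behind the family's name, rose from 331, 299 and 418 CPM to 853, 584 and 1658 (1.57 ± 0.35, edgeR adjusted p = 0.00633). Cpr67Fa2 (1.88 ± 0.48), Cpr50Cb (1.63 ± 0.50), Cpr67Fa1 (1.53 ± 0.38) and Cpr51A (1.44 ± 0.32) were also among the 8 largest, with edgeR adjusted p of 0.00615 to 0.0283. Cpr50Cb overlapped between the groups, with mof male 2 at 4.74 CPM and control male 4 at 5.78, and it was no longer called without mof male 4, without control male 1 or without control male 2, with the replicate block, with no low count filter or with the male libraries fitted alone (edgeR adjusted p of 0.0529 to 0.117). Cpr67Fa1 was not called with the male libraries fitted alone (edgeR adjusted p = 0.0621). The TwdlH call was lost without control male 4, with an edgeR adjusted p of 0.0501. TwdlF, at 2197, 1623 and 3270 CPM in mof males, did not pass (0.37 ± 0.28, edgeR adjusted p = 0.345).

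Calls by gene group are set beside the 12.7% of all tested genes higher in females and 16.0% in males. The shares of the Lcp and Ccp84A genes, and of the Twdl genes in males, were near or under these. Of the tested Cpr genes 18 of 43 were higher in females and 14 of 43 in males. Of the Twdl genes 8 of 24 were higher in females and 5 of 24 in males. Of the Lcp genes 1 of 11, Lcp65Ad, was higher in each sex, and of the Ccp84A genes 1 of 7 in females and none in males. The median log2 fold changes in females were 1.09 for Cpr, 1.21 for Twdl, 1.81 for Lcp and 1.20 for Ccp84A. In males they were 0.69 for Cpr, 0.77 for Twdl, 0.33 for Lcp and 0.61 for Ccp84A. The Lcp and Ccp84A groups thus had medians like or above those of the others in females but few calls. They are also those in which the 2 apart controls were most often high, with 6 of 11 Lcp and 4 of 7 Ccp84A genes, beside 8 of 43 Cpr and 5 of 24 Twdl genes. With those controls left out, the male median of the Ccp84A genes was 1.59. That of the tested genes of the Lcp65A tandem group then went from 0.94 to 3.56. The order of the male medians thus depended on these controls, and the values without them are descriptions.

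Along the chromosomes, counts are set beside the same 12.7% of all genes higher in females and 16.0% in males, and most groups are small. Both genes called in the Cpr67F group were Cpr67Fa1 and Cpr67Fa2, in either sex. In the Cpr64A group 2 of 3 tested genes, Cpr64Ab and Cpr64Ac, were higher in either sex, and both overlap CG43367. In the Cpr49A group 3 of 5 were higher in females and 2 of 5 in males. Between TwdlM and TwdlD 3 of 10 were higher in females (TwdlH, TwdlS and TwdlD) and 2 in males. In the Lcp65A group 2 of 9 tested genes were higher in females (Lcp65Ad and Cpr65Av) and 1 in males. Without both control female 4 and control male 2 the Lcp65Ag1 log2 fold change moved from 1.79 ± 1.18 to 3.82 ± 0.41 in females and from 0.94 ± 1.22 to 4.09 ± 0.46 in males (edgeR adjusted p = 0.000401 and 0.000196). Those of TwdlN moved from 1.73 ± 1.33 to 4.03 ± 0.72 and from 0.41 ± 1.36 to 3.61 ± 0.74 (edgeR adjusted p = 0.00549 and 0.00652). These genes were chosen for the spread of their controls, and the libraries left out are the high ones, so the values without them are descriptions. In the same fit 7 of 9 tested genes of the Lcp65A group and 8 of 10 between TwdlM and TwdlD were higher in each sex. The Ccp84A group had 5 of 7 in each sex, and the Cpr64A group 1 of 3 in females and none in males. Of all genes 11.7% were higher in females and 13.1% in males there, and these counts are descriptions too. With all libraries, 10 of 24 genes outside the tandem groups were higher in females and 8 of 24 in males.

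**Figure D4:**
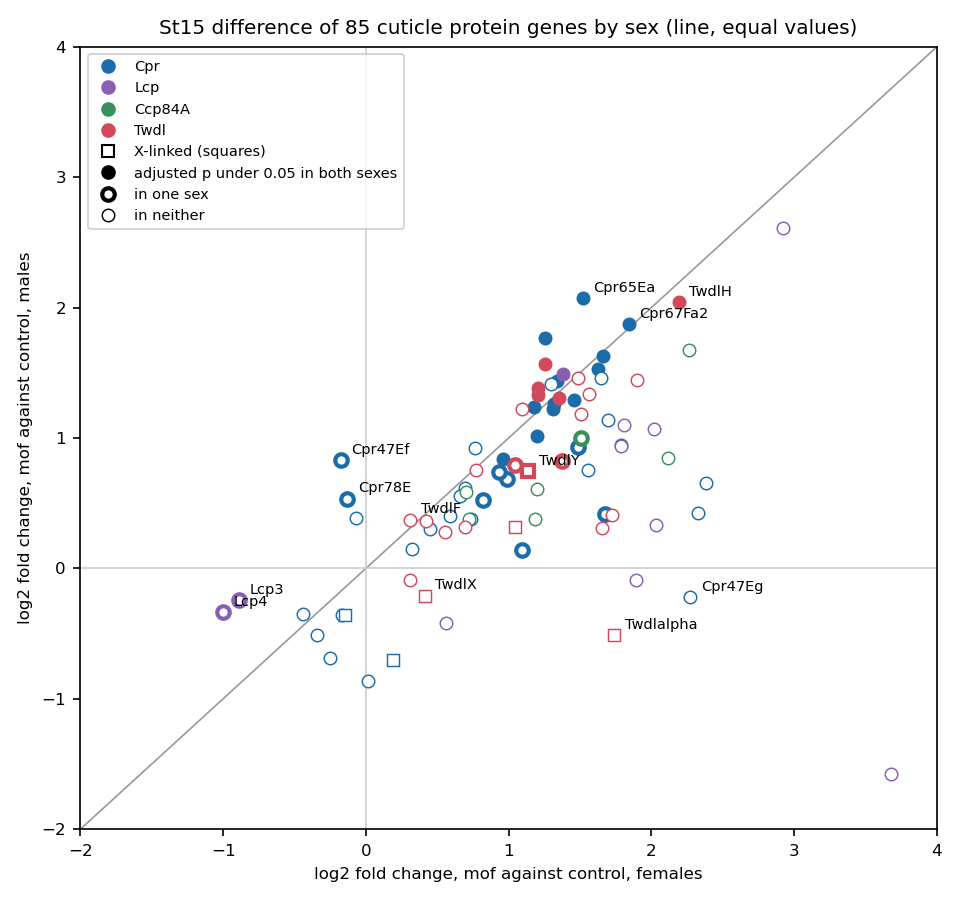
Log2 fold change of mof against control at St15 in females (x axis) and males (y axis) for the 85 tested genes, coloured by gene group, with X-linked genes as squares, and filled where the adjusted p was under 0.05 in both sexes. Most points lie right of and below the line of equal values; Lcp3 and Lcp4 lie at the lower left, and Cpr47Ef and Cpr78E lie above 0 in males and below 0 in females.

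The calls of the sexes shared most genes. Of the 20 members higher in males, 18 (90.0%) were also higher in females, which is 64.3% of the 28 higher there. Over all tested genes 26.8% of the male calls were shared, and 34.0% of the female calls. The male and female comparisons share no library, but all St15 groups were fitted together with a shared estimate of the spread for each gene. Both sexes also come from the same RNAi stocks, so the calls of the sexes are not independent. The 10 members called higher in females alone were Ccp84Ad, Cpr35B, Cpr47Eb, Cpr49Aa, Cpr65Av, Cpr66Cb, Cpr97Eb, TwdlS, TwdlV and TwdlY. In 66 of the 85 members the female log2 fold change exceeded the male one, and the median of the difference, males minus females, was -0.23 on the log2 scale, beside -0.01 over all genes. The test of the difference itself called 2 members, both higher in males, beside 6.56% of all genes higher and 10.2% lower.

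The 2 were Cpr47Ef and Cpr78E, the members called in males alone. Cpr47Ef was at 12.4, 15.1 and 11.3 CPM in the mof males and at 7.90, 7.19 and 6.76 in the control males, with no overlap. In females it was at 8.01, 6.95, 4.79 and 6.62 CPM in mof and 8.49, 8.52 and 6.36 in control embryos, which overlap. The mof effect thus differed by 1.00 ± 0.24 on the log2 scale (edgeR adjusted p = 0.0140). Cpr78E was at 4.20, 3.91 and 4.25 CPM in mof males and at 2.65, 2.62 and 3.27 in control males, again with no overlap. Its female values were 2.65, 2.76, 2.56 and 2.74 CPM in mof and 3.43, 3.10 and 2.64 in control embryos, which overlap. Its difference of 0.67 ± 0.21 (edgeR adjusted p = 0.0469) lay at the threshold and was lost with DESeq2, at 0.0681, and in most fits that left out a library. The next were Lcp4 (0.67 ± 0.23, edgeR adjusted p = 0.0599) and Lcp3 (0.65 ± 0.28, edgeR adjusted p = 0.141), which did not pass. In males Lcp4 was at 8.80, 10.5 and 11.2 CPM in mof and 11.7, 15.7 and 11.2 in control embryos.

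**Figure D5:**
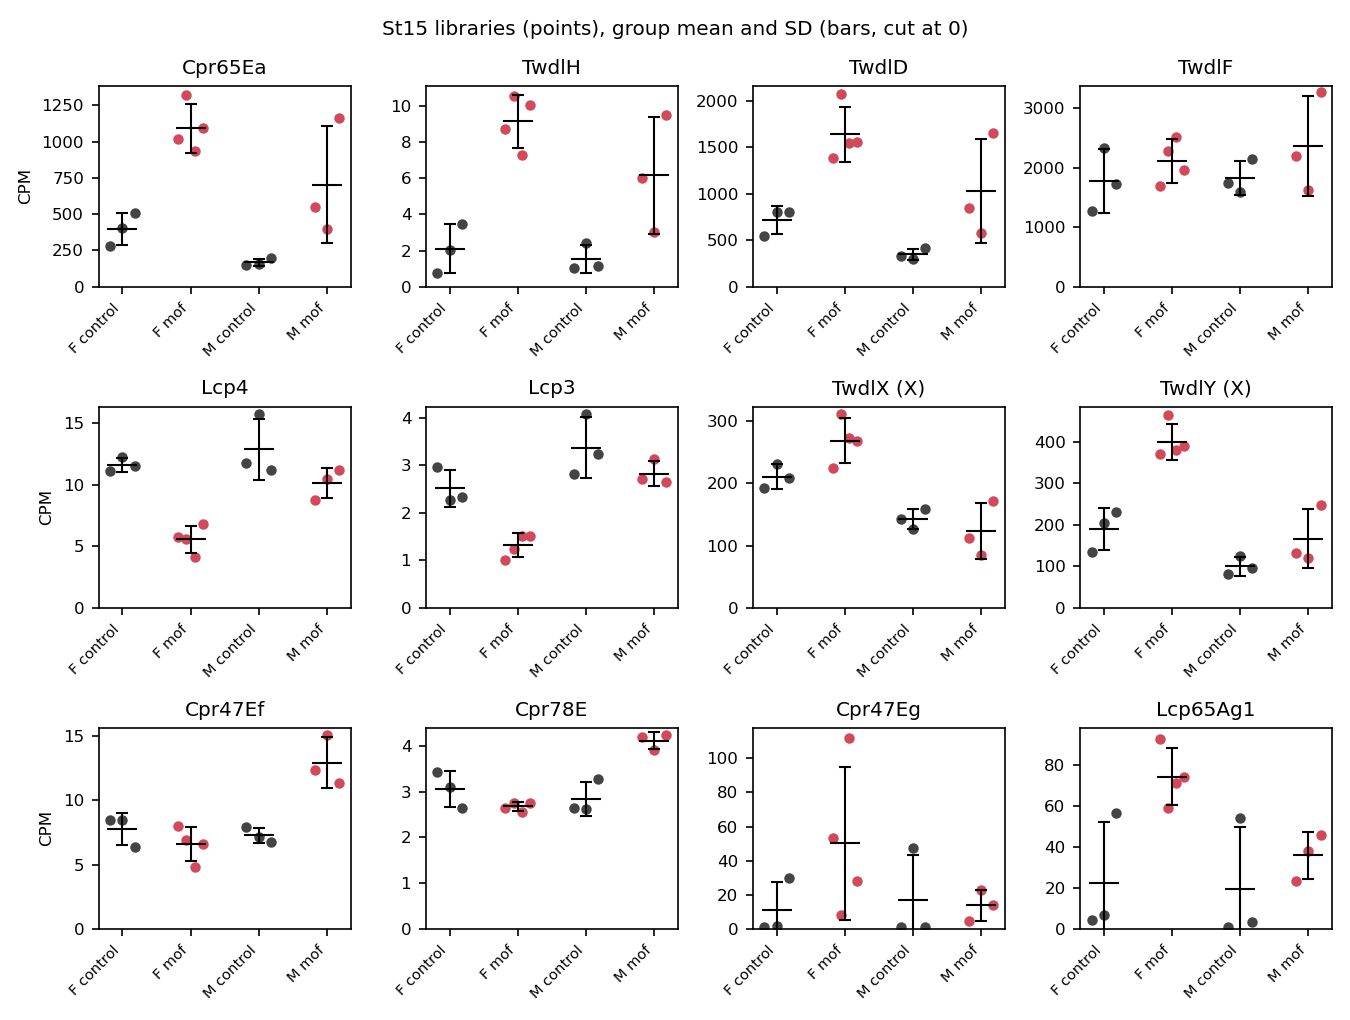
CPM of 12 genes in every St15 library (points; grey control, red mof; F female, M male) with the group mean and SD. Cpr65Ea, TwdlH and TwdlD are higher in both mof groups, Lcp3 and Lcp4 are lower in mof females, Cpr47Ef is higher in mof males alone, and Cpr47Eg and Lcp65Ag1 show the single high control library of each sex.

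Of the 120 genes 8 are X-linked, 4 of them the tandem Tweedle genes TwdlX, TwdlY, TwdlZ and Twdlalpha (X, 16731091 to 16744365), all of which overlap goe. Dosage compensation by the male-specific lethal complex makes the male X of interest here, and of all 1696 tested X-linked genes 63.7% were lower in mof males, with a median log2 fold change of -0.52. Of the 6 tested X-linked members none was called in males in either direction, and 1 had an unadjusted p under 0.05, beside 71.8% of all tested X-linked genes. Their median was -0.28, beside 0.76 for the 79 autosomal members, of which 20 were higher. In females the medians were 0.73 for the 6 and 1.26 for the 79. The negative male median of the 6 depended on the 2 apart controls. When control female 4 and control male 2 were left out, the male values were -0.30 (TwdlX), 0.91 (TwdlY) and 0.39 (TwdlZ). They were 1.78 for Twdlalpha, 0.09 for Cpr11A and -0.41 for Cpr12A. That fit was chosen after seeing the data, so these values are descriptions. TwdlX was at 112, 84.4 and 172 CPM in mof males and at 142, 127 and 158 in control males (-0.21 ± 0.22, edgeR adjusted p = 0.518). Without mof male 4 it was lower (-0.52, edgeR adjusted p = 0.0293), and the difference between the sexes passed as well (-0.90, edgeR adjusted p = 0.0114). TwdlY was at 131, 121 and 248 CPM in mof males and at 80.4, 125 and 95.5 in control males, which overlap (0.75 ± 0.29, edgeR adjusted p = 0.0733; with DESeq2 0.0475). In females TwdlY was at 370, 464, 379 and 389 CPM in mof and 134, 205 and 231 in control embryos, with no overlap (1.14 ± 0.28, edgeR adjusted p = 0.0147, and 0.0647 without control female 2). With all libraries the difference between the sexes did not pass for TwdlX (-0.62 ± 0.31, edgeR adjusted p = 0.197) or TwdlY (-0.39 ± 0.40, edgeR adjusted p = 0.549). Cpr11A, at 5.43 to 28.5 CPM, had log2 fold changes of -0.70 ± 0.62 in males and 0.19 ± 0.57 in females. TwdlZ, Twdlalpha and Cpr12A were at 2.89 CPM or less in every St15 library, and Cpr5C and Cpr11B did not pass the low count filter.

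Between control males and control females no member passed the test. None of the 85 was called, beside 0.365% of all genes higher in males and 0.936% lower (edgeR's quasi-likelihood test). At an unadjusted p under 0.05 there were 13 (15.3%), beside 10.6% of all genes, and DESeq2 called 1, lower in males, beside 1.99% of all genes lower. The median log2 difference, males minus females, was -0.36, beside 0.01 over all genes, and 67 of the 85 were at or below 0. In 14 members every control male lay under every control female, and in none the reverse, beside 9.51% and 10.1% of all genes. Cpr65Ea was such a case, at 149 to 196 CPM in males and 282 to 506 in females (-1.24 ± 0.37, edgeR adjusted p = 0.191). TwdlX (-0.57 ± 0.22), TwdlY (-0.93 ± 0.29) and TwdlZ (-1.16 ± 0.46) were others, with edgeR adjusted p of 0.219 to 0.371.

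Other genes of cuticle formation were tested in the same St15 fits, where 12.7% of all genes were higher and 13.3% lower in females, and 16.0% and 18.2% in males. Of 16 tested structural cuticle genes outside the families, 5 were higher in mof females and 3 in mof males, none was lower, and their medians were 0.92 and 0.15. obst-E, which encodes a chitin-binding protein of the larval cuticle, was at a mean of 187 CPM in mof females and 83.5 in control females (1.23 ± 0.28, edgeR adjusted p = 0.0111), and at 97.6 and 40.1 in males (1.29 ± 0.30, edgeR adjusted p = 0.00724). Vajk1 and Vajk4 were the others higher in both sexes. Of 19 tested chitin genes 3 were higher and 2 lower in females, and 1 was lower in males, with medians of 0.00 and -0.04. The chitin synthase gene kkv was lower in females by a small amount (-0.22 ± 0.07, edgeR adjusted p = 0.0255). Of 18 apical matrix genes 2 were higher and 3 lower in females and 2 lower in males. The summed level of this list was 14468 to 20112 CPM in mof females and 21554 to 22802 in control females. In males it was 17801 to 20283 CPM in mof and 20987 to 25322 in control embryos, again with no overlap. Of 15 tanning and pigment genes 4 were higher and 1 lower in females, and 2 and 2 in males. ple, which encodes the tyrosine hydroxylase of the tanning pathway, was lower in both sexes (-0.50 ± 0.09 and -0.46 ± 0.09, edgeR adjusted p = 0.00135 and 0.00189). Of 22 ecdysone genes 6 were higher and 3 lower in females, and 4 and 2 in males, with medians of 0.10 and 0.12. Of 17 epidermal and tracheal regulators 1 was higher and 1 lower in females, and 2 and 1 in males.

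The markers of other tissues are read against the same shares of all genes, and their part in the cuticle gene result was not tested. Of 17 tested muscle genes 9 were higher in mof females, with a median log2 fold change of 0.28, and 1 in mof males, with a median of 0.00. The summed muscle level was 40146 to 42936 CPM in mof females and 34403 to 37999 in control females. In males it was 31580, 30074 and 39949 CPM in mof males 1, 2 and 4 and 34302 to 35968 in the controls. Only mof male 4 lay above the control males, and the other mof males lay under them. Of 15 fat body and hemocyte genes 6 were higher in females and 1 in males, and of 9 glial genes 4 and 1. Another glial gene, moody, was lower in males (-0.33 ± 0.07, edgeR adjusted p = 0.00186). In males the single higher calls in these 3 lists are a share under the 16.0% of all genes. Of 16 neuronal genes 1 was higher in females and 5 were lower in males (Appl, cac, futsch, VGlut and fne). X-linked and autosomal genes were not separated in these lists, and X-linked genes were more often lower in mof males, as given above. Of 15 septate junction genes, which belong to the epidermal barrier, none was called in females, and 1 was higher and 2 were lower in males. Their summed level was 7025 to 7179 CPM in mof females and 6948 to 7847 in control females. Midgut, salivary gland and germ line lists each held at most 2 called genes in a sex.

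At St5 and St7 few of these genes could be tested. At St7 only 6 members passed the low count filter, and none was called in males (beside 9.93% of all genes higher and 15.3% lower) or in females (beside 11.0% and 16.8%). None of the 6 had an unadjusted p under 0.05 in either sex, beside 37.7% of all genes in males and 38.8% in females. DESeq2 called none, beside 13.5% of all genes higher and 15.6% lower in males, and 14.7% and 16.0% in females. Twdlalpha was at 5.57 to 8.48 CPM (median 7.28) in the 6 mof males and at 3.88 to 10.5 (median 7.79) in the 7 control males. Cpr73D was at 11.3 to 15.8 CPM (median 12.5) in mof males and at 9.93 to 17.1 (median 12.5) in control males. Both genes overlapped between the groups. Cpr60D was at 2.02, 1.69, 2.01 and 4.57 CPM in the mof females and at 2.96 to 6.10 in the 6 control females (-0.70 ± 0.35, edgeR adjusted p = 0.141). Without mof female 4 it was lower (-1.07, edgeR adjusted p = 0.0345).

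At St5, 14 members were tested. None was called in males, beside 6.51% of all genes higher and 7.33% lower, with 2 at an unadjusted p under 0.05, beside 31.4% of all genes, and 2 called higher by DESeq2, Cpr31A and Cpr78Cb, beside 10.0%. In females, with 2 libraries a group, 1 was called higher and none lower, beside 2.24% and 1.80% of all genes, and 4 had an unadjusted p under 0.05, beside 19.9%. Their median log2 fold change was 1.66, beside 0.00 over all genes. Libraries did not overlap in 6 of the 14 on the higher side and in none on the lower, beside 27.9% and 30.9% of all genes. The called gene was Cpr31A, with 25 and 50 counts in the mof females (0.633 and 1.20 CPM) and no count in either control female. Against a floor of 3 counts per control library it was at least 9.85-fold higher (edgeR adjusted p = 0.0206). The call was lost without control female 1, without control female 2 and without mof female 2, where the lone library of a group is assumed to vary like the other groups. In males Cpr31A was at 1.14, 2.10, 2.18 and 0.421 CPM in mof and 0.447, 0.849, 0.457 and 0.185 in control embryos, which overlap (1.82 ± 0.64, edgeR adjusted p = 0.0809).

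S2 cells held little RNA of these families. Cpr97Eb was the most abundant, at 8.42, 9.66 and 10.2 CPM in the GFP libraries and 8.30, 10.8 and 8.94 in those labelled mof dsRNA, which overlap. Cpr67Fa1, Cpr97Ea, TwdlC and Cpr64Ad were the others at 1 CPM or more in the GFP libraries. Of 16 tested members 1 was lower and none higher, beside 13.2% and 10.2% of all genes, with 2 at an unadjusted p under 0.05, beside 36.2%. The gene was TwdlC, at 0.593, 0.513 and 0.577 CPM in the libraries labelled mof dsRNA and 1.49, 1.61 and 1.25 in the GFP libraries, with no overlap (-1.33 ± 0.22, edgeR adjusted p = 0.00187). In St15 embryos TwdlC was higher in mof, at 273 to 339 CPM beside 90.5 to 181 in females (1.35 ± 0.34, edgeR adjusted p = 0.017) and at 118 to 292 beside 57.2 to 95.3 in males (1.31 ± 0.36, edgeR adjusted p = 0.0173).

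The 35 members that were not tested at St15 were 27 Cpr, 6 Lcp and 2 Twdl genes, 9 of them in the Lcp65A group. Each had a mean of at most 0.689 CPM over the 13 libraries, and 5 had no count in any library of any stage: Cpr57A, Cpr65Ax1, Lcp65APsi, Lcp65Ab1 and Lcp65Ab2. Among these 5, Cpr65Ax1, Lcp65Ab1 and Lcp65Ab2 have near-identical copies, and how reads were divided between copies is not given. Calls are thus counts over the members that passed the low count filter, and 53 of the 85 tested were called in neither sex.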

How the data were processed

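Each table holds raw read counts per gene, deposited by the authors for St5, St7, St15 and S2 separately. The reads came from a stranded polyA kit per the labels' protocols, and the dm6 build is named in the submitters' processing notes. Aligner, counting tool and strand setting: not given in the sources used here. Genes were matched by identifier (17252 of 17558 at St7, St15 and in S2) or, at St5, by symbol (12887), locus tag (3604) and synonym (846), with 221 unmatched. Listed genes without a match were Cpap3-d1, dp, wurst, phm and nos. Sex at St5 and St7 was assigned by the submitters after sequencing, from msl-2, Sxl, tra and tra2.

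CPM were computed from the counted total. Each table was fitted alone with edgeR 4.0.16 (R 4.3.3): filterByExpr, TMM scaling, and the quasi-likelihood test on all groups of the table, with Benjamini-Hochberg adjustment over all genes tested and calls under 0.05. Standard errors were taken as log2 fold change divided by the root of F. DESeq2 1.42.0 and the other alternatives are given in the closing section. The procedure was tested on simulated data. The members and gene lists were chosen with earlier results of these data known. Named at St15 were up to 8 called members per direction with a mean of at least 2 CPM, the 2 most abundant of each family and tandem group, and all X-linked members; other stages give the 8 most abundant tested. Genes picked for the high pair of controls and others named outside this rule were chosen after their values were seen. Same-numbered libraries did not vary together in every pair (St15 correlations of deviations -0.47 to 0.24), so the numbers were not used as pairs. P-values set the difference between groups against the spread among libraries, and in embryos they do not cover variation between RNAi stocks.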

Additional observations from a re-analysis of the deposited data

Results flagged for a closer look

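Single libraries stood far from the rest of their group in 4 of 89 groups examined, and chance gives about 1 in 20. At St15, mof female 3 had 6.12 CPM of Cpr76Bb, where the other mof females had 0 to 0.446. The same library had 2.89 CPM of Twdlalpha, where the others had 1.42 to 1.61. At St7, mof female 4 had 4.57 CPM of Cpr60D, where the others had 1.69 to 2.02. At St5, control male 3 had 33.3 CPM of Cpr60D, where the others had 7.32 to 9.48.

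The mof effect at St15 differed between the sexes by test for Cpr47Ef, by 1.00 on the log2 scale, and for Cpr78E, by 0.67, each more positive in males.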

How the results depend on the processing

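The number of St15 members called ranged from 11 to 30 in males and from 4 to 37 in females as single libraries were left out. It was 9 in males with only the groups compared, and 37 in males and 49 in females without control female 4 and control male 2, an alternative chosen after seeing the data. The difference between the sexes was called for 1 member with TMM on autosomal genes, with no low count filter, with a minimum of 10 CPM and with the replicate block, and for 1 to 3 as single libraries were left out. Between control males and females DESeq2 called 1 member, and a fit of only the groups compared called 2. With the replicate block 16 members were called in males and 31 in females; the difference between the sexes then had 1 call, as above, and the counts of the other comparisons did not move; same-numbered libraries did not correlate in every pair. Leaving out a library gave 0 to 1 call in St7 females and 0 to 1 in St5 females, where the lone library of a group is assumed to vary like the others. At St5 DESeq2 called 2 members in males and 2 in females, and with a minimum of 10 CPM females had 0. In S2 cells TMM on autosomal genes gave 2; a minimum of 10 CPM left no member to test, and a fit of only the groups compared is the same fit. Members detected at St5 were 4 at a threshold of 0.5 CPM, 2 over all libraries and 1 to 2 as libraries were left out; at St7 there were 2 at 5 CPM; in S2 cells 9 at 0.5 CPM and 2 at 5 CPM. The X-linked minus autosomal member median in males ranged from -1.03 to -0.63 as libraries were left out and was -1.04 without control female 4 and control male 2. The cause of these shifts was not tested. Over the named genes 1084 values kept their call or lack of one, 47 lost a call and 14 gained one. No value called in either of the fits compared changed direction. Values called in neither could change sign, as that of Cpr11A in males did without control female 4 and control male 2. Groups of 2 to 4 libraries limit the precision at St5 and St15.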
